A study of Homo sapiens with 9 samples.

Results

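The genes described here are those of the absorptive intestinal cell, the enterocyte, and of its brush border, measured in HT29, a cell line derived from a human colon cancer. The group was drawn up by name and covers regulators of the enterocyte programme, the microvillus skeleton and its adhesion links, digestive enzymes, nutrient transporters, intracellular lipid and sugar binders, surface proteins, and the guanylin peptides with their receptor. Of 39 listed symbols, 38 were measured among 19775 genes, and HNF4A is not analysed here. Each gene was represented by the probe set, among those assigned to that symbol alone, with the highest mean over the 9 arrays. Cells were exposed for 24 h to instant caffeinated coffee at 7 µg/mL (ICC), exposed for 24 h to caffeic acid, a phenolic acid of coffee, at 1.68 µg/mL (CA), or left untreated (Control), with 3 Affymetrix arrays in each group. All groups are 1 cell line, and nothing in the labels tells if the replicates are separate cultures, so every p-value measures only the spread between these arrays, which may be technical. Precision is limited by the number of arrays.

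Enterocytes carry a dense field of microvilli on their luminal side. Each microvillus holds a bundle of actin filaments, cross-linked by villin, plastin and espin and tied to the membrane by ezrin, and protocadherins at the tips tie neighbouring microvilli together. Digestive enzymes and transporters sit in the membrane over this scaffold, and CDX and HNF4 transcription factors are known to drive many of these genes in the intestine. HT29 cells kept in glucose medium are known to remain largely undifferentiated, and to acquire a brush border under other culture conditions.

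The regions upstream of a few members are shown first, with the letters that CDX and HNF1 factors are known to prefer. The 250 bases before the start site were searched on both strands for motifs of 4 factor families, none of which contains another. The motif searched for CDX factors was TTTATG. For HNF1 it was GTTAAT, a part of the site that these factors bind. The HNF4 motif was CAAAGTCCA. For GATA factors the letters AGATAA were taken. The sequences are RefSeq's, of GRCh38.p14, and 30 of the 39 listed genes had at least 1 window, 41 windows in all. Capitals mark every match, including matches on the opposite strand, which read CATAAA and ATTAAC here, each sequence runs 5′ to 3′ toward the start site, and all 5 genes lie on the minus strand. KRT20 and TSPAN8 are shown as members with a strong signal in these cells, SI and FABP1 as members whose signal lay among or below that of genes of other tissues, and LGALS2 as the member with the largest difference after caffeic acid.
KRT20 (chr17:40885243-40885492): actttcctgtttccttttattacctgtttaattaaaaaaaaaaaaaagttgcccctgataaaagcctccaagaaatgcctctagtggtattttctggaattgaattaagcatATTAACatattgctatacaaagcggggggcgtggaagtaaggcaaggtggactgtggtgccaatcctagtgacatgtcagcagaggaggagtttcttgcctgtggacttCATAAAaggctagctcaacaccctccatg
TSPAN8 (chr12:71157810-71158059): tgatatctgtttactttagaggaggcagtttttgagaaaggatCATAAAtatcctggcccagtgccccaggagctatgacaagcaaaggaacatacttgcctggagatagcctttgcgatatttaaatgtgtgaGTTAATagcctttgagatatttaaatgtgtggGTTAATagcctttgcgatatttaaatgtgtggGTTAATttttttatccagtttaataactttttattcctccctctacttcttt
SI (chr3:165078497-165078746): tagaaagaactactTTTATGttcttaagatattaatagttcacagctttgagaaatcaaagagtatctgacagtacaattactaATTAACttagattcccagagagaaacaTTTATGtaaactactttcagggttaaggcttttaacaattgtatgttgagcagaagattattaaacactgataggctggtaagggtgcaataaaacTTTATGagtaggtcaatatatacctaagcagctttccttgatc
FABP1 (chr2:88128063-88128312): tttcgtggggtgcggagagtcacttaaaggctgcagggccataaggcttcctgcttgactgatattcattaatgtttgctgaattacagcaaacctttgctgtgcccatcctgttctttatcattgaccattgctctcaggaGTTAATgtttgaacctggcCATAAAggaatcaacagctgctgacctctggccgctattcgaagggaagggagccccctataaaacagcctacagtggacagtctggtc
LGALS2 (chr22:37580088-37580337): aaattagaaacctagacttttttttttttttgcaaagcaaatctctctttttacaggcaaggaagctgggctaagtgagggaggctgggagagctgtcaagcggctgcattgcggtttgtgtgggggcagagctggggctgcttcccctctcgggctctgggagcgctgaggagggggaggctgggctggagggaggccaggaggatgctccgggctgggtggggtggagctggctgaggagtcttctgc

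TTTATG was found in 8 of the 41 member windows (19.5%), those of 7 genes, and in 9.64% of all 35116 windows of the same length. GTTAAT was found in 10 member windows (24.4%) and in 6.23% of all windows. AGATAA stood in 6 member windows (14.6%) against 9.17% of all, and CAAAGTCCA in 1 (2.44%) against 0.325% of all, that of MYO1A. TTTATG and GTTAAT occurred together in the windows of KRT20, TSPAN8, SI and FABP1, so these letters were present both where the array read a strong signal and where it did not. Of the 30 genes with a window, these 4 are the only ones with both motifs. They are therefore not a fair sample of members with a strong or a weak signal. The window of LGALS2 held none of the 4 motifs, and neither did that of LGALS4, a member with a strong signal whose window is not printed. This says only that these letters are absent from these 250 bases. A second TSPAN8 window overlaps the one printed, and its TTTATG match is the same site, so that the 8 windows count this site more than once.

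Which members give a signal in HT29 cells was read against 17 measured genes of other tissues, such as the leukocyte gene PTPRC, the cone opsin gene OPN1SW and the muscle regulator MYOD1, of 20 listed. These genes spanned 3.63 to 6.53 log2 intensity in the 3 control arrays. All 3 controls of 12 of the 38 members lay above this range, as did those of 47.9% of all genes (9477 of 19775), and the other 26 members did not pass it in all 3. A probe set's intensity depends on how well its probes bind, so levels are read for each gene alone and are not ranked between genes. The cells carried the epithelial markers EPCAM, KRT8, KRT18, KRT19 and CDH1, whose control means lay between 12.2 and 14.4. The leukocyte markers PTPRC, CD3E and CD79A had control means between 3.71 and 5.79, but they are among the 17 genes that set the range. Of 5 fibroblast markers 1, COL1A1, lay above the range, at 7.02 to 7.19 in Control. The control means of CDX1 (7.09), HNF4G (7.04) and LGALS2 (7.15) were close to this. A value above the range is thus not by itself a sign that the gene is expressed.

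**Figure D1:**
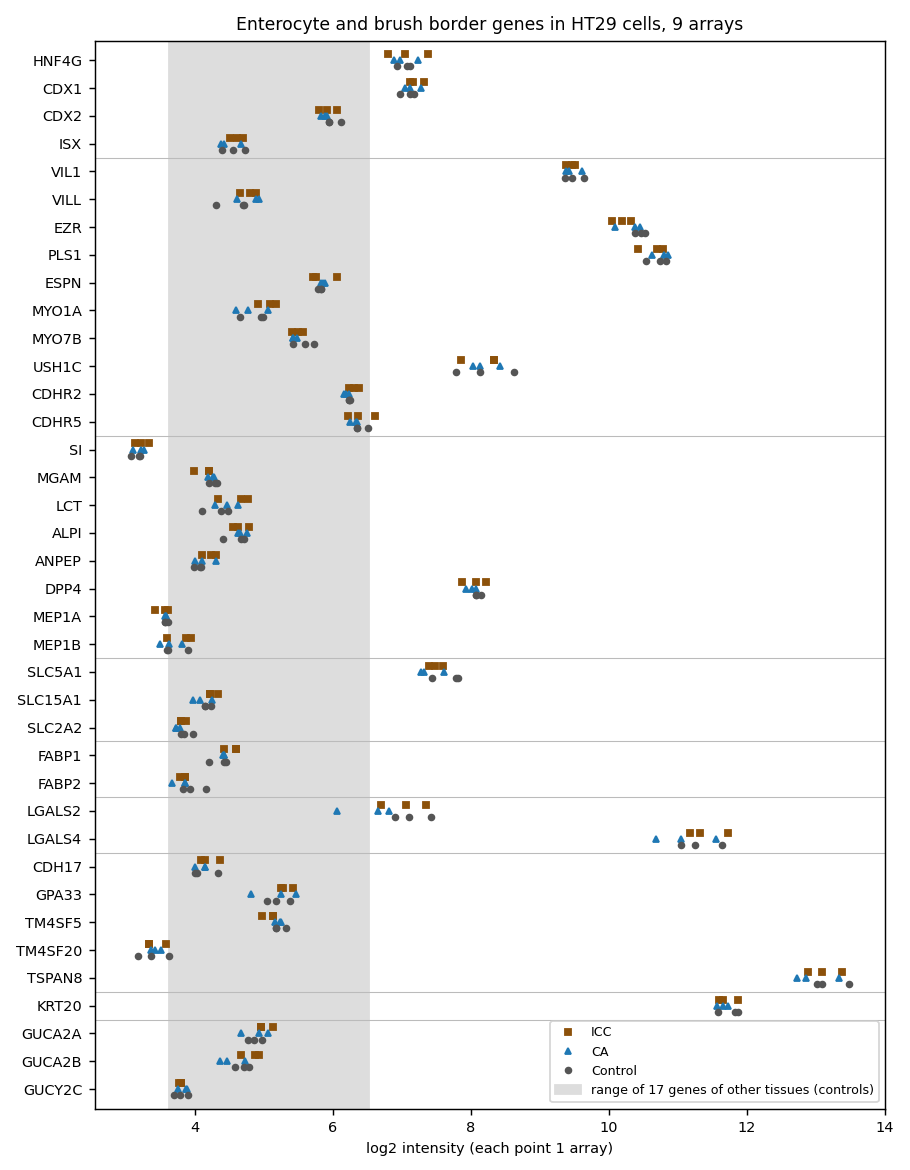
Log2 intensity of the 38 measured members, with each point 1 array, ICC as squares, CA as triangles and Control as circles, and members grouped by role between thin lines. The grey band is the range of the 17 genes of other tissues in the controls, 3.63 to 6.53, and 12 members lie to its right in all 3 controls while the treated arrays stay close to the controls in nearly every row.

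Among the regulators, CDX1 and HNF4G were above the range of other tissues and CDX2 and ISX were within it. CDX1, a homeobox factor of the intestinal lining, read 7.33, 7.16 and 7.12 log2 in ICC, 7.05, 7.12 and 7.27 in CA, and 7.18, 7.12 and 6.98 in Control. HNF4G, a nuclear receptor closely related to HNF4A, read 6.81, 7.38 and 7.05 in ICC, 6.88, 7.23 and 6.97 in CA, and 6.94, 7.11 and 7.07 in Control. In both genes the 3 groups overlapped.
CDX2, the homeobox factor that sets intestinal identity in the embryo, read 5.80, 6.06 and 5.92 in ICC, 5.90, 5.91 and 5.83 in CA, and 5.95, 5.95 and 6.11 in Control. Its 3 CA values lay below its 3 controls, with a difference of -0.12 ± 0.084 log2 (SE over 3 and 3 arrays, limma adjusted p 0.996), while ICC overlapped with Control. ISX, an intestine-specific homeobox repressor of carotenoid and lipid uptake genes, read 4.52 to 4.70 in ICC, 4.38 to 4.67 in CA and 4.40 to 4.72 in Control, and its groups overlapped.

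Of the 10 genes of the microvillus skeleton and its adhesion links, VIL1, EZR, PLS1 and USH1C were above the range of other tissues. Villin, the product of VIL1, bundles and severs actin, and VIL1 read 9.47, 9.38 and 9.51 in ICC, 9.37, 9.43 and 9.61 in CA, and 9.46, 9.37 and 9.64 in Control. The difference of VIL1 was -0.035 ± 0.092 log2 for ICC against Control, with a 95% interval of -0.24 to 0.17, and -0.020 for CA against Control, with an interval of -0.22 to 0.18. VIL1 thus differed by less than the spread between arrays in both treatments. The gene of the related villin-like protein, VILL, read 4.90, 4.66 and 4.80 in ICC, 4.61, 4.93 and 4.89 in CA, and 4.30, 4.72 and 4.71 in Control, within the range of other tissues in every array.
PLS1, which encodes the actin bundler plastin 1, read between 10.43 and 10.79 in ICC, 10.62 and 10.86 in CA, and 10.53 and 10.83 in Control. USH1C encodes harmonin, the scaffold that holds the protocadherin links to the actin core, and read 7.85, 8.34 and 8.33 in ICC, 8.03, 8.13 and 8.43 in CA, and 7.78, 8.14 and 8.62 in Control. Its controls had an SD of 0.42 log2, the widest among the members.

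The protocadherin genes of the tip links gave intensities near the upper end of that of other tissues. CDHR2 read 6.39, 6.31 and 6.24 in ICC, 6.16, 6.20 and 6.24 in CA, and 6.26, 6.24 and 6.24 in Control. Its partner CDHR5 read 6.23, 6.61 and 6.37 in ICC, 6.33, 6.36 and 6.25 in CA, and 6.52, 6.36 and 6.35 in Control. Neither set of groups was apart. MYO7B, the motor that carries the tip-link complex, gave a signal well inside that range and read 5.57, 5.50 and 5.41 in ICC, 5.42, 5.49 and 5.42 in CA, and 5.60, 5.73 and 5.43 in Control. MYO1A, a motor that tethers the actin core to the membrane, read 5.18, 4.92 and 5.09 in ICC, 4.60, 4.78 and 5.06 in CA, and 4.65, 4.99 and 4.97 in Control. The actin bundler ESPN read 5.72 to 6.06 in ICC, 5.82 to 5.89 in CA and 5.78 to 5.83 in Control, so the 3 groups of each of these genes overlapped.

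Of the 8 genes of brush border hydrolases, only DPP4, the dipeptidyl peptidase, was above the range of other tissues, at 7.87, 8.08 and 8.22 in ICC, 7.93, 8.01 and 8.08 in CA, and 8.08, 8.15 and 8.08 in Control. The enzymes of starch and sugar digestion gave no signal beyond that range. SI, the gene of sucrase-isomaltase, read 3.34, 3.23 and 3.14 in ICC, 3.27, 3.23 and 3.10 in CA, and 3.21, 3.19 and 3.08 in Control, below the lowest gene of other tissues. MGAM, the gene of maltase-glucoamylase, read 4.22, 4.0 and 4.22 in ICC, 4.26, 4.19 and 4.28 in CA, and 4.30, 4.22 and 4.32 in Control. LCT, the lactase gene, read 4.78, 4.34 and 4.67 in ICC, 4.30, 4.47 and 4.63 in CA, and 4.38, 4.48 and 4.11 in Control.
The intestinal alkaline phosphatase gene ALPI, aminopeptidase N (ANPEP) and the meprin subunit genes MEP1A and MEP1B also stayed within or below the range. ALPI read 4.56 to 4.79 in ICC, 4.63 to 4.76 in CA and 4.41 to 4.71 in Control. ANPEP read 4.31, 4.24 and 4.10 in ICC, 4.01, 4.10 and 4.32 in CA, and 4.08, 4.10 and 4.0 in Control, so that its ICC values lay above its controls by a narrow margin. MEP1A read 3.43 to 3.62 in ICC, 3.57 to 3.59 in CA and 3.57 to 3.61 in Control, and MEP1B read 3.60 to 3.95 in ICC, 3.50 to 3.82 in CA and 3.60 to 3.90 in Control.

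SLC5A1, which encodes the sodium-glucose cotransporter of the luminal membrane, was the 1 transporter of 3 above the range of other tissues. It read 7.40, 7.48 and 7.60 in ICC, 7.32, 7.27 and 7.61 in CA, and 7.79, 7.44 and 7.81 in Control. Both treated groups overlapped with Control through its second replicate. The peptide transporter gene SLC15A1 read 4.22, 4.22 and 4.33 in ICC, 3.97, 4.08 and 4.25 in CA, and 4.15, 4.15 and 4.24 in Control. SLC2A2, the gene of the basolateral sugar carrier GLUT2, read 3.80, 3.88 and 3.80 in ICC, 3.73, 3.73 and 3.79 in CA, and 3.98, 3.85 and 3.80 in Control. The fatty acid binding protein genes were likewise within the range, FABP1 at 4.60, 4.60 and 4.42 in ICC, 4.42, 4.41 and 4.42 in CA, and 4.42, 4.45 and 4.21 in Control. FABP2 read 3.86, 3.79 and 3.86 in ICC, 3.68, 3.86 and 3.86 in CA, and 3.94, 3.84 and 4.16 in Control.

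Galectins are lectins that bind galactose-containing sugars, and both galectin genes were above the range of other tissues in Control. LGALS2 read 7.06, 7.35 and 6.69 in ICC, 6.66, 6.82 and 6.07 in CA, and 7.11, 7.43 and 6.91 in Control. All 3 CA values of LGALS2 lay below all 3 controls, and the ICC values overlapped with Control. LGALS4, whose product helps carry proteins to the apical membrane, read 11.18, 11.72 and 11.32 in ICC, 10.68, 11.56 and 11.04 in CA, and 11.04, 11.64 and 11.24 in Control. Its groups overlapped, yet in each replicate number the CA array was the lowest of the 3.
TSPAN8, a tetraspanin of the cell surface, read 12.88, 13.09 and 13.38 in ICC, 12.73, 12.86 and 13.33 in CA, and 13.02, 13.09 and 13.48 in Control. KRT20, a keratin of mature intestinal cells, read 11.86, 11.60 and 11.65 in ICC, 11.72, 11.57 and 11.65 in CA, and 11.87, 11.58 and 11.83 in Control. The other surface genes CDH17 (liver-intestine cadherin), GPA33 (the A33 antigen), TM4SF5 and TM4SF20 had control means of 4.12, 5.20, 5.23 and 3.39, none above the range. CDH17 read 4.10 to 4.37 in ICC, 4.0 to 4.15 in CA and 4.0 to 4.33 in Control, and GPA33 read 5.25 to 5.42 in ICC, 4.81 to 5.47 in CA and 5.04 to 5.39 in Control. TM4SF5 read 5.13, 5.13 and 4.98 in ICC, 5.25, 5.17 and 5.24 in CA, and 5.18, 5.18 and 5.33 in Control, while TM4SF20 read 3.34 to 3.59 in ICC, 3.38 to 3.52 in CA and 3.17 to 3.62 in Control.

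Guanylin and uroguanylin are peptides that act through the receptor guanylate cyclase C, encoded by GUCY2C, to drive fluid secretion. None of the 3 genes was above the range of other tissues. GUCA2A (guanylin) read 5.14, 4.96 and 4.96 in ICC, 4.93, 4.67 and 5.07 in CA, and 4.97, 4.87 and 4.78 in Control. GUCA2B (uroguanylin) read 4.93, 4.88 and 4.67 in ICC, 4.47, 4.37 and 4.73 in CA, and 4.79, 4.72 and 4.58 in Control. GUCY2C read 3.77 to 3.81 in ICC, 3.77 to 3.90 in CA and 3.70 to 3.90 in Control, and in all 3 genes the treated arrays overlapped with the controls.

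Instant coffee was set against untreated cells to ask whether the beverage moves the absorptive programme, and the members showed no common direction. In ICC against Control, limma called 0 of 38 members at an adjusted p under 0.05 (0% of all 19775 genes), and 1 member, EZR, had an unadjusted p under 0.05 (7.73% of all genes, and 1.9% in its direction, lower). With the replicate number as a block these were 0 members (0% of all genes) and 2 members (12.4% of all genes), FABP1 above Control (8.41% of all genes) and EZR below it (3.99%). The median difference of the members was 0.032 log2, against 0.028 over all genes, and 18 of 38 members (47.4%) were below 0, against 39.8% of all genes. ICC and Control did not overlap in 3 members, which is 7.89% of them, against 12% of all genes. These were ANPEP, with ICC above Control (8.46% of all genes), and EZR and TM4SF5, with ICC below it (3.5%). Higher in ICC in 3 of 3 same-numbered pairs were 11 members (28.9%), against 21.1% of all genes, and lower in 3 of 3 were 7 members (18.4%), against 12.2%. Every member's 95% interval lay within 1 log2 of 0 in this comparison, and the distance between an estimate and its bounds had a median of 0.22 log2.

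The member with the smallest p in ICC against Control was EZR, the gene of ezrin, which links actin filaments to the membrane. EZR read 10.04, 10.18 and 10.33 in ICC, 10.09, 10.45 and 10.38 in CA, and 10.53, 10.38 and 10.47 in Control. All 3 ICC values were below all 3 controls, with a difference of -0.27 ± 0.11 log2 (1.21-fold, SE over 3 and 3 arrays, adjusted p 0.630 with limma, and adjusted p 0.334 with the block). The same-numbered differences were -0.48, -0.19 and -0.14. EZR has 5 probe sets, and of the other 4 the difference was -0.22, -0.20 and -0.18 in 3 and 0.14 in the other, so the probe sets of EZR disagree.
The remaining members with the smallest p were all within the range of other tissues. FABP1 stood at 0.18 ± 0.084 log2 and was higher in 3 of 3 same-numbered pairs, LCT stood at 0.27 ± 0.14 and ANPEP at 0.16 ± 0.091, while TM4SF5 stood at -0.15 ± 0.074 and MGAM at -0.14 ± 0.079. Their adjusted p with limma lay between 0.648 and 0.689. With 1 array left out FABP1 was as low as 0.10, LCT 0.16 and ANPEP 0.11, and MGAM and TM4SF5 were as near 0 as -0.063 and -0.10. FABP1 stood at 0.078 when its probe sets were averaged. Over the 26 members within the range, 17 stood above 0 in ICC against Control with a median of 0.068, and over the 17 genes of other tissues 15 stood above 0 with a median of 0.093. The 12 brighter members had a median of -0.049 with 9 below 0, against a median of 0.0076 and 47.1% below 0 over all 9477 genes above the range.

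**Figure D2:**
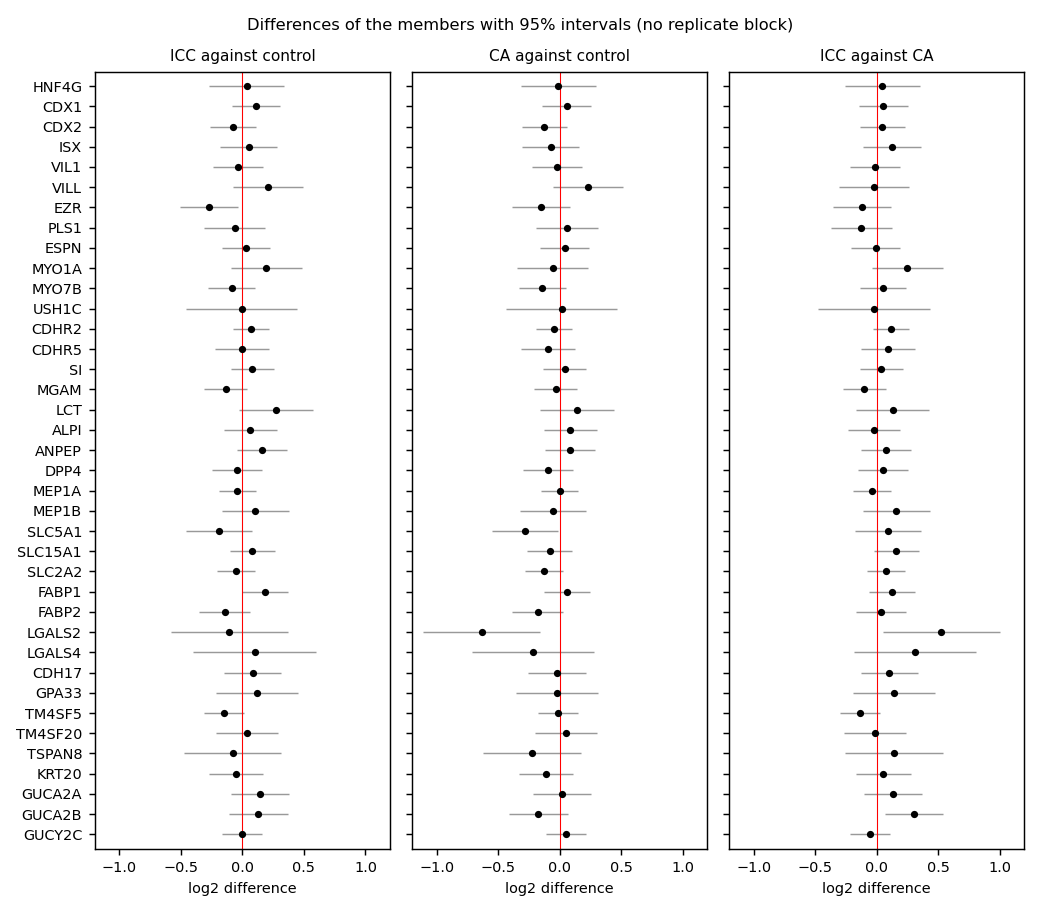
Log2 difference of each of the 38 members (points) with its 95% interval from limma without the replicate block (bars), with ICC over Control on the left, CA over Control in the middle and ICC over CA on the right, with 0 as a red line. EZR in the left panel, LGALS2 and SLC5A1 in the middle panel, and LGALS2 and GUCA2B in the right panel have intervals that leave out 0, before adjustment for the number of genes.

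The single compound, caffeic acid, was compared with untreated cells to ask the same question. The galectin gene LGALS2 had the largest difference of any member, at -0.63 ± 0.21 log2 (1.55-fold, SE over 3 and 3 arrays), with a 95% interval of -1.11 to -0.16. Its same-numbered differences were -0.45, -0.61 and -0.84, so it was lower in 3 of 3 pairs. LGALS2 did not pass over all genes, with a limma adjusted p of 0.996 without the block. With the replicate number as a block its SE was 0.080, its interval was -0.81 to -0.46 and its adjusted p was 0.0550, the fourth smallest p of all genes. Over the alternatives tried, its adjusted p ranged between 0.0549 and 1.00 and its difference between -0.78 and -0.41.

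In CA against Control limma called 0 of 38 members at an adjusted p under 0.05 (0% of all genes), and 2 members, LGALS2 and SLC5A1, had an unadjusted p under 0.05 (4.47% of all genes), both below Control (1.91%). With the block 0 members were called, against 0.0152% of all genes, and 4 members, all below Control, had an unadjusted p under 0.05, where 4.5% of all genes were below Control by this rule and 8.54% were in either direction. The 4 were LGALS2, TSPAN8, SLC5A1 and LGALS4, all of them members whose controls lay above the range of other tissues. The members' median difference was -0.029 log2, against 0.0027 over all genes, and 25 of 38 (65.8%) were below 0, against 48.6% of all genes. The groups did not overlap in 3 members (7.86% of all genes), which were LGALS2, CDX2 and SLC2A2, each with CA below Control (3.46% of all genes). Lower in 3 of 3 pairs were 9 members, 23.7% of them, against 13.9% of all genes, and higher in 3 of 3 were 2 members, against 13.8%.

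SLC5A1 stood at -0.28 ± 0.12 log2 in CA against Control (1.21-fold, SE over 3 and 3 arrays, limma adjusted p 0.996, and adjusted p 0.458 with the block), with same-numbered differences of -0.47, -0.17 and -0.20. Its second probe set stood at -0.26. TSPAN8 stood at -0.22 ± 0.18 with same-numbered differences of -0.29, -0.23 and -0.15, and the block gave an SE of 0.068 and an adjusted p of 0.452. LGALS4 stood at -0.22 ± 0.22 with differences of -0.36, -0.086 and -0.20, and the block gave an SE of 0.077 and an adjusted p of 0.488. With 1 array left out, LGALS4 ranged between -0.45 (without CA replicate 2) and -0.010 (without CA replicate 1), and between -0.28 and -0.13 with the block as well. TSPAN8 ranged between -0.40 and -0.080, and between -0.27 and -0.19 with the block as well. SLC5A1, TSPAN8 and LGALS4 were lower in CA in every same-numbered pair, while the groups of each overlapped.
The other members with a small p in CA against Control gave intensities within the range of other tissues. FABP2 stood at -0.18 ± 0.092 log2, SLC2A2 at -0.13 ± 0.070 and MYO7B at -0.14 ± 0.085, while VILL stood at 0.23 ± 0.13, each with a limma adjusted p of 0.996. With 1 array left out they came as near 0 as -0.089 (FABP2), -0.076 (SLC2A2), -0.069 (MYO7B) and 0.097 (VILL). The 12 brighter members had a median of -0.10 with 9 below 0, against a median of -0.0071 and 53.6% below 0 over all genes above the range.

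Markers of goblet cells, the mucus-secreting cells that HT29 cultures can also form, are given beside the galectin values. Of 7 measured goblet markers 1, AGR2, was above the range of other tissues, and AGR2 is singled out after its values were seen. The median difference of the 7 was 0.039 log2 in CA against Control, with AGR2 the lowest and CLCA1 the highest at 0.17. In that comparison limma called 0 of the 7 without the block (0% of all genes) and 0 with it (0.0152% of all genes). Summed over the 7, a sum made up mostly of AGR2, the log2 of the intensity spanned 10.84 to 11.66 in ICC, 10.51 to 11.47 in CA and 10.97 to 11.66 in Control. AGR2 itself spanned 10.50 to 11.50 in ICC, 10.14 to 11.28 in CA and 10.71 to 11.50 in Control, and stood at -0.40 in CA against Control, while the mucin gene MUC2 spanned 5.86 to 6.10 in ICC, 6.0 to 6.14 in CA and 5.82 to 6.13 in Control. Of 4 stem cell markers, LGR5 was the lowest in CA against Control, at -0.40 ± 0.30 (adjusted p 1.00, and 0.546 with the block). SMOC2 was the highest of the 4, at 0.15, and their median was -0.10. LGR5 read 7.18, 5.99 and 7.15 in CA and 7.03, 6.96 and 7.52 in Control, so its CA mean was drawn down by replicate 2. The part of goblet-type or stem-type cells in the galectin values was not tested. In cultures measured in bulk, fewer cells that express a gene and less RNA of it per cell cannot be told apart.

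**Figure D3:**
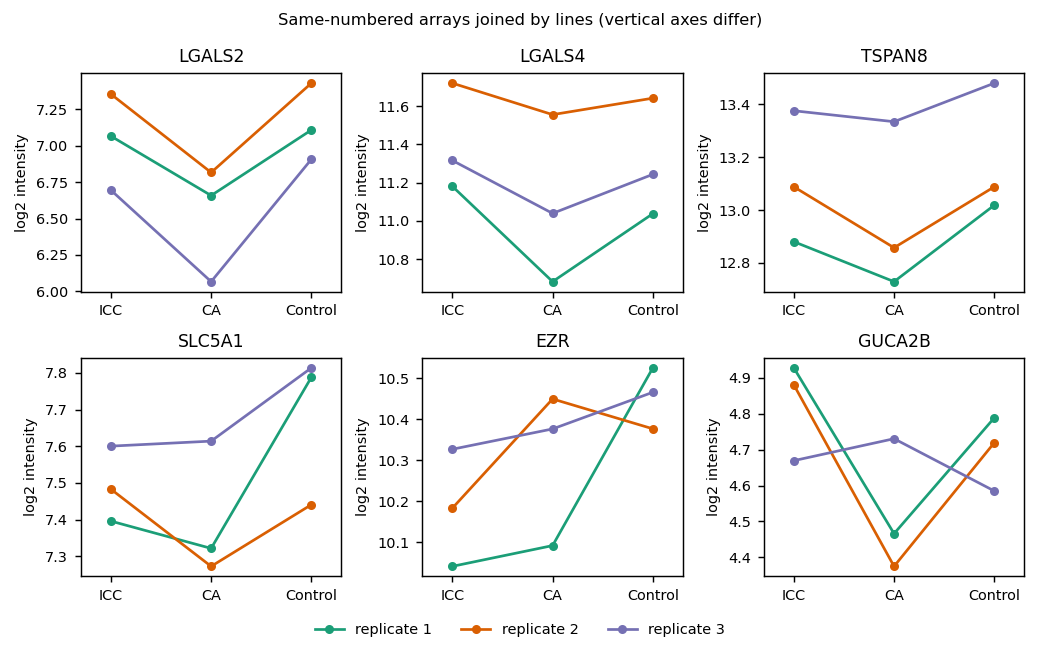
Log2 intensity of 6 members in ICC, CA and Control, with the arrays of 1 replicate number joined by a line and a vertical axis of its own for each gene. In LGALS2, LGALS4 and TSPAN8 the 3 lines run nearly parallel and dip at CA, while those of EZR and GUCA2B cross.

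ICC and CA were set against each other at the 2 doses used, 7 and 1.68 µg/mL, which differ. In ICC against CA limma called 0 of 38 members at an adjusted p under 0.05 (0% of all genes), and 2 members, GUCA2B and LGALS2, had an unadjusted p under 0.05 (2.69% of all genes), both higher in ICC (2.19%). With the block 0 members were called (0.00506% of all genes) and 4 had an unadjusted p under 0.05 (5.96% of all genes), all higher in ICC (4.63%). These were LGALS2, LGALS4, GUCA2B and SLC15A1. The members' median difference was 0.054 log2, against 0.024 over all genes, with 12 of 38 (31.6%) below 0, against 39.4% of all genes. The arrays of ICC and CA did not overlap in 2 members (5.87% of all genes), SLC2A2 with ICC above CA (4.11%) and TM4SF5 with ICC below it (1.75%). Higher in ICC in 3 of 3 pairs were 6 members, against 15.5% of all genes, and lower in 3 of 3 were 4 members, against 8.77%.

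LGALS2 stood at 0.52 ± 0.21 log2 in ICC against CA (1.44-fold, SE over 3 and 3 arrays, limma adjusted p 1.00, and adjusted p 0.242 with the block), with same-numbered differences of 0.41, 0.54 and 0.63, and ranged between 0.30 and 0.70 with 1 array left out. In ICC against Control, which shares its control arrays with CA against Control, LGALS2 stood at -0.11 ± 0.21 with a 95% interval of -0.58 to 0.37. LGALS4 stood at 0.31 ± 0.22 in ICC against CA, with differences of 0.50, 0.16 and 0.28 and an adjusted p of 0.590 with the block, and it ranged between 0.11 and 0.54 with 1 array left out. Both galectin genes were thus higher in ICC than in CA in 3 of 3 pairs, and neither passed over all genes. The CA arrays are the same as in CA against Control, so this is not a separate observation of their low values. In ICC against Control LGALS4 stood at 0.098 ± 0.22.
GUCA2B stood at 0.30 ± 0.11 (1.23-fold), with differences of 0.46, 0.51 and -0.061, so that its pair of replicate 3 ran the other way. It did not pass over all genes without the block, and its limma adjusted p with the block was 0.810. The remaining members with the smallest p, like GUCA2B, gave intensities within the range of other tissues. They stood at 0.16 ± 0.083 (SLC15A1), 0.25 ± 0.13 (MYO1A), -0.14 ± 0.074 (TM4SF5) and 0.11 ± 0.066 (CDHR2). With 1 array left out these came as near 0 as 0.096, 0.14, -0.087 and 0.077.

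Most of the 12 members above the range of other tissues varied largely with the replicate number. Of the variation of TSPAN8 around its 3 group means, 97.1% was shared by same-numbered arrays, and the shares were 95.6% for LGALS4, 94.2% for LGALS2, 92.0% for PLS1, 82.4% for USH1C and 81.9% for HNF4G. The median share was 82.1% over the 12 brighter members, against 61.3% over all 9477 genes above the range and 45.6% over all genes. Arrays that vary independently also give a share of this kind, so a share by itself does not show that same-numbered arrays vary together. The share passed 80%, a limit set after the values were seen, in 8 of the 12 (66.7%) and in 24% of the genes above the range. It was lower for SLC5A1 (66.9%), DPP4 (58.1%), EZR (36.9%) and CDX1 (9.53%). Over the 26 members not above the range the median share was 32.4%. It passed 80% in 3 of them (11.5%), SI at 93.5%, MGAM at 82.2% and SLC15A1 at 80.3%.
The numbers did not order the genes alike. Replicate 2 was the highest array of each group for LGALS2 and LGALS4, with mean deviations of 0.30 and 0.37 log2, whereas replicate 3 was the highest for TSPAN8 and the lowest for LGALS2, at 0.30 and -0.34. Replicate 1 was the lowest of each group for LGALS4, TSPAN8, PLS1 and USH1C, at -0.30, -0.22, -0.17 and -0.30. The labels do not say what the number marks.

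**Figure D4:**
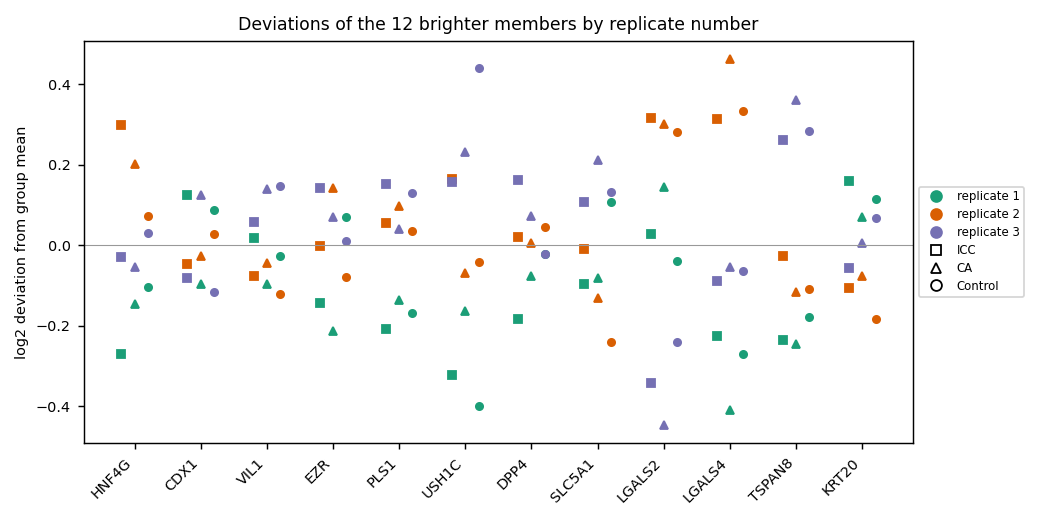
Log2 deviation of each array from its group mean for the 12 members above the range of other tissues, with colour for the replicate number and shape for the group. Same-coloured points lie together for LGALS2, LGALS4 and TSPAN8, where same-numbered arrays share 94.2% to 97.1% of the variation, and are mixed for CDX1 and EZR.

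Further genes of the brush border and of the absorptive programme were counted from lists of their own. Of 15 measured genes of the microvillus scaffold, such as EPS8 and the tip-link partner ANKS4B, 12 were above the range of other tissues, and limma called 0 in each of the 3 comparisons with or without the block. ACTN4, an actin cross-linker with the smallest p of these 15, stood at 0.23 ± 0.077 in ICC against Control (limma adjusted p 0.614). Its ICC values lay above its controls without overlap, as did those of 8.46% of all genes. Of 12 measured intestinal regulators 7 were above the range, among them KLF5 and VDR, and again 0 passed in any comparison. Of 28 other absorptive genes 2 were above the range, and 0 passed. The amino acid transporter gene SLC6A19 stood at 0.29 ± 0.11 in ICC and 0.36 ± 0.11 in CA, both against Control. SLC7A9 stood at 0.32 ± 0.095 and 0.17 ± 0.095, with the 2 comparisons sharing their controls. Both genes lay within the range of other tissues, with control means of 5.92 (SLC6A19) and 5.01 (SLC7A9). Their limma adjusted p lay between 0.614 and 0.996. At an unadjusted p under 0.05 these 3 lists of 15, 12 and 28 genes together had 3 genes higher and 0 lower in ICC against Control. Of all genes 7.73% passed there in either direction, and 1.9% were lower. In CA against Control 1 was higher and 0 lower, where 4.47% of all genes passed in either direction and 1.91% were lower. With the block, 1 scaffold gene, 1 regulator and 2 other absorptive genes were higher in ICC against Control (8.41% of all genes). In that comparison 1 scaffold gene was lower (3.99% of all genes). In CA against Control 1 other absorptive gene was higher and 1 scaffold gene was lower, where 4.5% of all genes were lower and 8.54% passed in either direction. Without the block, 2 scaffold genes and 1 other absorptive gene were higher in ICC against CA (2.19% of all genes), and 0 were lower. With it, 2 genes of each list were higher in ICC against CA (4.63% of all genes), and 0 were lower.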

How the data were processed

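RNA from HT29 cells was hybridised to Affymetrix HG-U133 Plus 2.0 arrays, 3 in each group. The deposited values are linear intensity, which the authors made with RMA, per the submitters' processing notes. GeneSpring GX is named in the design text, and its version and settings are unstated there. Values were then put on a log2 scale for this report. Array medians were 43.8 to 46.6, and correlations between arrays across genes were 0.995 to 0.998. Of 54675 probe sets 41091 had 1 gene symbol in the platform annotation, which gave 19775 genes, each represented by its brightest probe set. Several probe sets existed for 14 of the 38 members, and 17 members had exactly equal values on at least 2 arrays. The 3' minus 5' difference of the GAPDH and ACTB control probe sets was -0.039 to 0.093 and 0.16 to 0.40 log2.

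Tests used limma 3.58.1 (R 4.3.3), with all 9 arrays and 3 groups in a single fit, and p-values were adjusted by Benjamini-Hochberg over all genes. With 3 arrays against 3 an exact permutation test of a single gene cannot give a p below 0.1. In simulated data for ICC against Control (19775 genes, 200 changed), 76% of changes of 0.5 log2 and 100% of changes of 1 log2 were recovered with 1 false call, and with the block 74%, 100% and 9 false calls. These shares hold for 200 changed genes and independent noise. The simulated arrays held no effect of the replicate number, so the shares do not measure how either fit works on these arrays.

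Same-numbered arrays deviated together from their group means, with correlations of 0.327 to 0.518 in 9 of 9 pairs, against -0.436 to 0.0839 in pairs of different number. The pairing comes from these deviations, as the labels do not say what the number marks. A fit with the number as a block was therefore run, and other normalizations, probe set rules and left-out arrays were tried. Figures were drawn with matplotlib 3.10.9. The members and lists were chosen with earlier results of these data known. Members are given array by array where they are regulators, related pairs or among the 6 smallest p of a comparison, and TSPAN8, KRT20, DPP4 and USH1C were added after their values were seen.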

Additional observations from a re-analysis of the deposited data

How the results depend on the processing

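No member passed over all genes in any of the 3 comparisons under any of the 27 alternatives tried for each, with the replicate block and without. The count of all genes called by limma moved off 0 only with the block. In CA against Control it was 3 with the block, 4 with the block and arrays centred on their medians, and 0 to 1 with the block and 1 array left out, and in ICC against CA it was 1 with the block and 1 with the block after quantile normalization again. The alternatives that combine the block with another choice were added after the data were seen.

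The members' median difference in ICC against Control, 0.032 log2, was -0.010 with centred arrays, -0.015 after quantile normalization again (the same with the block), 0.054 when probe sets of a gene were averaged, -0.0039 when those named _x_at and _s_at were left out, and -0.049 over the 12 members left without dim genes. It ranged between -0.00047 and 0.049 with 1 array left out and between -0.040 and 0.064 with the block as well, where it was -0.030 without Control replicate 2. In CA against Control, where it was -0.029, it was -0.10 without dim genes, and ranged between -0.063 and -0.0073 with 1 array left out and between -0.078 and -0.022 with the block as well. The difference of LGALS2 in ICC against Control, -0.11, ranged between -0.27 and 0.062 with 1 array left out, and turned to 0.031 without Control replicate 2 and 0.062 without ICC replicate 3. In CA against Control LGALS2 ranged between -0.78 and -0.41 with 1 array left out, and with the block as well its adjusted p ranged between 0.104 and 0.311. The cause of these shifts was not tested.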

Other observations

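Several members have further probe sets, and these did not always give the direction of the brightest one. For DPP4 all 3 probe sets were below Control in ICC, at -0.044, -0.24 and -0.28 log2, and in CA, at -0.095, -0.18 and -0.13. For CDHR5 the 3 probe sets stood at -0.0041, 0.17 and 0.24 in ICC against Control and at -0.093, -0.16 and 0.012 in CA against Control. For HNF4G the second probe set stood at -0.21 in ICC against Control, where the brightest stood at 0.035. For VIL1 the 4 probe sets spanned -0.035 to 0.073 in ICC against Control and -0.13 to -0.020 in CA against Control. These differences are values of single probe sets, and no test was run on them.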
